A study of Mus musculus with 48 samples.

Results

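Synaptic vesicle and release machinery genes are described here in mouse nucleus accumbens shell, part of the ventral striatum and of the circuit for reward. The 38 genes were taken by name from the gene table, which holds 37620 genes, and from the exon table: 10 synaptotagmins, 3 synapsins, 3 SV2 genes, synaptophysin and synaptoporin, 4 SNARE genes, 2 complexins, 3 RIM genes, 3 Rab3 genes and their effector rabphilin, 3 Munc13 genes, 3 active zone scaffolds and the GABA vesicle transporter. All 38 were present and passed the filter on low values. The mice belonged to a heterogeneous outbred stock (HS-CC, heterogeneous stock-collaborative cross) in generation 4 of selective breeding for High or Low ethanol preference. The groups were High mice of gender F (females) and of gender M (males), and Low mice of each gender. Each group had 12 poly(A) RNA-seq libraries, each taken as 1 mouse. All groups share the stock and the laser-dissected tissue. The sources used here do not give age, or whether these mice had drunk ethanol. Each line is 1 selected population, so a line difference from selection and one from drift cannot be told apart.

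Release begins with vesicles that are filled by a transporter and held in clusters by synapsins. They are tethered at the active zone by Rab3, RIM and scaffold proteins, and primed by Munc13 proteins. Fusion is carried out by the SNARE proteins Vamp2 on the vesicle and Snap25 and Stx1a on the plasma membrane, held ready by complexins and triggered when calcium binds synaptotagmins. In the accumbens most neurons are GABA-releasing spiny neurons. Glutamate inputs arrive as axons from cortex, thalamus, amygdala and hippocampus, whose messenger RNA is made in those regions.

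The deposited values are normalised counts, so the depth before normalisation is unknown and no counting interval was attached. Column totals ran from 13579559 to 14561911 and genes above 0 from 19708 to 20888 per library. High male replicate 1 had the lowest median correlation with the other libraries, 0.967 against a median of 0.976, and results that rest on it are given with and without it. All 12 medium spiny neuron markers, all 10 astrocyte, all 12 oligodendrocyte and all 8 microglia markers averaged 1 ppm or more of the column total. Of 12 markers of cortical pyramidal neurons, 8 did. Emx1, a marker of cortex, averaged 3.15 normalised counts, while Penk, a spiny neuron peptide gene, averaged 29982.

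The sequences shown first belong to genes compared below: the exon pair of Snap25, and windows around the starts of Stx1a and Syn1. Whether the letters of these windows have a part in any difference between libraries was not tested. Snap25 carries a pair of exons of 118 bases that replace each other in the messenger RNA, known as exons 5a and 5b, which are rows 5 and 6 of its exon list here. They lie on the plus strand at chr2:136769743-136769860 and chr2:136770057-136770174 (GRCm38, GENCODE M21). They are printed because reads on them separate the transcript forms; capitals mark the 31 positions at which they differ, for an identity of 73.7%.
Snap25 exon row 5: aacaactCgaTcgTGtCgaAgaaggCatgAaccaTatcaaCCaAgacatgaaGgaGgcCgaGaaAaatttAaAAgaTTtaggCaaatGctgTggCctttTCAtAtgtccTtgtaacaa
Snap25 exon row 6: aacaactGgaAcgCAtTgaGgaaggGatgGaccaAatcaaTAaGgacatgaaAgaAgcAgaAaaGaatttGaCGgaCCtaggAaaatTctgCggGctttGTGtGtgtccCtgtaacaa

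Stx1a, the member that moved most clearly with cortical markers between libraries, has the window below around its start (RefSeq, GRCm38.p6, plus strand, chr5:135023232-135023531). It covers the 250 bases before the start and the 50 after it. Capitals mark 3 GC boxes, the letters GGGCGG.
Stx1a promoter: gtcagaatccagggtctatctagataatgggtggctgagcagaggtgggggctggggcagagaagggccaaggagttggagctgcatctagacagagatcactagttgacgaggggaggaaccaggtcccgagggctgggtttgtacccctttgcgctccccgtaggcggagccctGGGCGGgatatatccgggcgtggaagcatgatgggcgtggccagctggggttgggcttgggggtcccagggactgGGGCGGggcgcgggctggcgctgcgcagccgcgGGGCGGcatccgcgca
RefSeq windows matched 30 of the 38 genes, with 42 windows in all. Searched on both strands, the GC box stood in 66.7% of these windows and in 35.7% of all 32851 mouse windows of 300 bases. The letters TTCAGCACC, the left part of the RE1 element that the repressor REST binds, stood in 4.76% of the members' windows (Syn1 and Unc13a) and in 0.371% of all windows. TGACGTCA, the CRE, stood in 2.38% and 1.79%, and TATAAA in 7.14% and 13.6%; the 4 motifs were not required to be free of overlap. The Syn1 window, the example with both an RE1 part and a CRE (in capitals), lies on the minus strand at chrX:20920869-20921168 (RefSeq, GRCm38.p6).
Syn1 promoter: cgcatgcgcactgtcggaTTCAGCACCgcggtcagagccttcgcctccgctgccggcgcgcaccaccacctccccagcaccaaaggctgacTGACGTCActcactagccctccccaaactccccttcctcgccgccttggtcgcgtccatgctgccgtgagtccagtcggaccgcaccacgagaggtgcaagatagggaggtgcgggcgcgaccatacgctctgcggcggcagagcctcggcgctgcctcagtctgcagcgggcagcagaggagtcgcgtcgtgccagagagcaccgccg
These matches describe the letters of the windows, not occupied sites.

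Snap25 and Vamp2 were among the 4 most abundant of the 38 genes per kilobase of exon, and Syt10 was the least abundant. Together the genes held 1.00% of the deposited total. Their share was 1.01% ± 0.052 in High mice and 0.992% ± 0.043 in Low mice (SD, n = 24 each). Snap25, on the plasma membrane, averaged 8074 ± 1102 normalised counts per kb over the 48 libraries (SD), with a mean of 18037 normalised counts, the highest of the 38. The place of the vesicle SNARE Vamp2 depends on the length used. Over its 2 listed exon rows, 853 bases, it stood at 13060 ± 923 per kb, above Snap25. Its protein-coding transcripts in GENCODE M21 cover 2827 bases, and over these, a length chosen after seeing the data, it stood at 3941 ± 278, below Snap25, Rab3a and synaptophysin. Its mean of 11140 normalised counts was also below that of Snap25. Next to these stood the small GTPase Rab3a at 4891 ± 279 and the vesicle membrane protein synaptophysin (Syp) at 4421 ± 312. Rab3a and Syp differ by less than the sum of their SDs. By level, 18 of the 38 genes stood above the 90th percentile of all tested genes, and 5 stood below the 50th: Vamp1, Syt2, Unc13b, Sv2c and Syt10. Lengths came from matched GENCODE exons and include alternative ones, so a gene with long unused exons is understated per kb, and one with exons that have no row is overstated. Sv2c, Syn3, Syt1 and Syt12 also changed by over 1.5 times with the transcripts' full length.

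**Figure D1:**
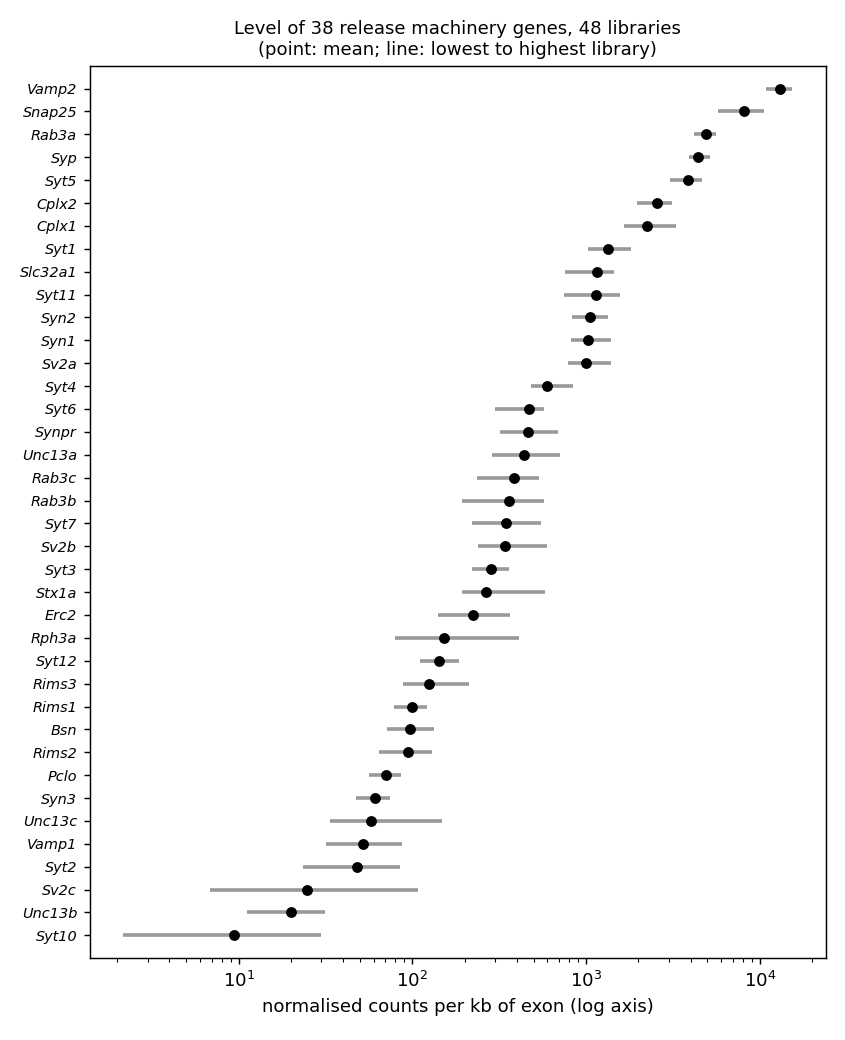
Level of each of the 38 genes in normalised counts per kb of exon (log axis), with points for the mean over 48 libraries and lines from the lowest to the highest library. Vamp2 stands highest only over the 853 bases of its 2 listed rows, and over its 2827 transcript bases it would lie at 3941, under the 8074 of Snap25. Syt10 is lowest, and Sv2c and Syt10 have the widest spans.

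Among the calcium sensors, Syt5 was the most abundant per kb at 3847 ± 376 and Syt10, known for its part in growth factor secretion from olfactory bulb neurons, the least at 9.4 ± 5.7. Syt5 ran from 5558 through a median of 6741 to 8109 normalised counts in High mice and from 5321 through 6767.5 to 7732 in Low mice. Syt10 ran from 5 through 18 to 54 in High mice and from 6 through 13 to 45 in Low mice. High and Low mice overlapped in both genes. Syt1, the sensor of fast release in forebrain synapses, stood at 1337 ± 165 per kb, against 47.9 ± 15.9 for Syt2, the fast sensor best known from brainstem and spinal synapses. The gap between Syt5 and Syt1 depends on the length used. Over the full length of the coding transcripts they stood at 2824 and 2229 per kb. By mean value Syt1 was the higher, at 10759 normalised counts against 6721 for Syt5. Syt7, a slower sensor, stood at 345 ± 85.8 per kb, Syt3 at 284 ± 31.4 and Syt6 at 473 ± 58.5. Syt11, Syt4 and Syt12, whose proteins are known to bind calcium poorly or not at all, stood at 1144 ± 169, 594 ± 78.5 and 142 ± 19.0 per kb.

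The synapsins differed mainly by the low level of Syn3. Syn2 and Syn1 stood at 1061 ± 107 and 1027 ± 125 per kb, closer to each other than their spread, and Syn3 at 61.0 ± 7.5. Syn2 ran from 4584 through 5614.5 to 6794 normalised counts in High mice and from 4238 through 5149.5 to 6428 in Low mice. Syn3 ran from 635 through 750.5 to 913 in High mice and from 584 through 706 to 907 in Low mice. Both genes overlapped between the lines. A single exon row of Syn3, the 8th of 18, held on average 693 normalised counts while the rows beside it held 3 and 1. Syn3 hosts Timp3 on the opposite strand, and the sources used here do not say whether the authors' counting used strand.

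Of the vesicle membrane proteins, Sv2a, the binding site of the antiepileptic levetiracetam, stood at 999 ± 119 per kb, Sv2b at 340 ± 58.2 and Sv2c at 24.7 ± 17.0. Sv2a ran from 3668 through 4590.5 to 6437 normalised counts in High mice and from 3679 through 4625 to 5666 in Low mice. Sv2c ran from 35 through 84 to 472 in High mice and from 32 through 88 to 254 in Low mice, so single mice of 1 line differed far more than the lines. Its within-group SD of 0.756 on the log2 scale was at the 97.6th percentile of all tested genes. Synaptoporin (Synpr), a relative of synaptophysin, stood at 464 ± 79.7 per kb. The GABA and glycine vesicle transporter Slc32a1 stood at 1150 ± 145 per kb, and its values ran from 2215 through 3176 to 4041 in High mice and from 2112 through 3226 to 4059 in Low mice. By comparison Slc17a7, the vesicle glutamate transporter of cortical neurons and no member, had medians of 14.5 in High and 17.5 in Low mice and a highest value of 3886.

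Among the fusion proteins, Vamp1, the vesicle SNARE of brainstem and spinal neurons, stood at 52.2 ± 10.7 per kb, far under Vamp2. Vamp2 ran from 9763 through 11009.5 to 12769 normalised counts in High mice and from 9246 through 11161 to 13095 in Low mice. Vamp1 ran from 169 through 271.5 to 354 in High mice and from 180 through 290.5 to 460 in Low mice. The lines overlapped in both. Snap25 ran from 13161 through 17962 to 23741 in High mice and from 12784 through 17170 to 22064 in Low mice. Stx1a, its plasma membrane partner, was much lower per kb, at 266 ± 62.5. Complexin 2 (Cplx2) and complexin 1 (Cplx1) stood at 2552 ± 279 and 2243 ± 385 per kb and overlapped across libraries. Cplx2 ran from 10920 through 12881.5 to 15458 normalised counts in High mice and from 9724 through 12554.5 to 14563 in Low mice.

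The priming and tethering genes stood at or below the 440 normalised counts per kb of Unc13a, apart from Rab3a. Rab3a ran from 7878 through 8790.5 to 10030 normalised counts in High mice and from 7493 through 8882 to 9413 in Low mice. Its within-group SD of 0.085 (log2) was at the 0.5th percentile of all genes, which made it the steadiest member. Rab3b was the least abundant Rab3 gene here at 362 ± 84.4 per kb, but Rab3c stood at 385 ± 71.3, closer to it than their spread. Over the full length of the coding transcripts they stood at 378 and 385 per kb. Rab3b ran from 696 through 1225 to 2028 in High mice and from 680 through 1246.5 to 1737 in Low mice. Unc13a, the main Munc13 of forebrain synapses, stood at 440 ± 109 per kb, Unc13c at 57.5 ± 21.5 and Unc13b at 20.1 ± 5.2. Unc13a ran from 2931 through 3927.5 to 6577 in High mice and from 2964 through 4542.5 to 7230 in Low mice, and Unc13b from 181 through 328.5 to 516 in High mice and from 190 through 336.5 to 477 in Low mice. The scaffolds Erc2, Bsn and Pclo stood at 224 ± 38.5, 96.8 ± 11.9 and 70.5 ± 6.8 per kb. Erc2 ran from 898 through 1439 to 2348 normalised counts in High mice and from 1161 through 1384 to 1736 in Low mice. Pclo ran from 1312 through 1558 to 1936 in High mice and from 1261 through 1556.5 to 1816 in Low mice. Over all 38 genes the median within-group SD was 0.216 (log2), beside 0.232 for all genes.

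No member passed the line test, which compared High with Low mice over both genders. Values were tested with limma on log2(value + 0.5 ppm) over 15350 genes with Benjamini-Hochberg adjustment, and a gene was called at an adjusted p under 0.05. Of 38 genes 0 were called, beside 0.280% of all genes tested, and 1 had an unadjusted p under 0.05, beside 9.07% of all genes. Of the 38 log2 differences 23 were above 0 and 15 below, with a median of 0.010, against a median of -0.0028 over all genes. Among the marker lists, 12 of 12 oligodendrocyte genes had a difference below 0, 9 with an unadjusted p under 0.05 and 0 called by limma. Their sum was 17666 ± 4427 normalised counts in High mice and 19796 ± 3757 in Low mice (SD, n = 24 each). Of 10 astrocyte genes, 10 had a difference above 0, 1 with an unadjusted p under 0.05 and 0 called by limma. Of 9 interneuron genes tested, 4 had a difference below 0 and 1 was called, the peptide gene Sst, lower in High mice by 0.40 (log2, adjusted limma p 0.0233). The other 5 had a difference above 0. The interneuron sum was 4559 ± 742 in High mice and 5353 ± 746 in Low mice (SD, n = 24 each). Sst, with a mean of 2066 normalised counts, is the largest gene in this sum, so the sum does not describe interneurons as a whole. The part of these cell types in the members' values was not tested. In bulk tissue, fewer cells of a type and less RNA per cell cannot be told apart.

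Rims1, which organises the active zone and binds Rab3 and Munc13, had the smallest p. It ran from 581 through 651 to 769 normalised counts in High mice and from 498 through 622.5 to 727 in Low mice. The groups overlapped over most of their range, although no High mouse fell to the lowest Low values. The means were 654 ± 50.1 in High mice and 606 ± 58.6 in Low mice (SD, n = 24 each). The log2 difference was 0.11 ± 0.038 (SE), a fold of 1.08, with an adjusted p of 0.262 by limma and of 0.149 to 0.324 under the alternatives. Rab3c, a close relative of Rab3a, ran from 2805 through 3423 to 4669 in High mice and from 2099 through 3309.5 to 4761 in Low mice. Its difference of 0.15 ± 0.075 had an adjusted limma p of 0.564. Syt2 ran from 162 through 289 to 584 in High mice and from 207 through 320.5 to 531 in Low mice, with a log2 difference of -0.23 ± 0.13 and an adjusted limma p of 0.606. SEs of the 38 differences ran from 0.028 for Rab3a to 0.209 for Sv2c, so the test was much finer for the abundant, steady genes.

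Within a gender the picture was similar. In females 0 of 38 genes were called, beside 0.0261% of all genes, and 2 had an unadjusted p under 0.05, Rims1 and Rab3c, beside 4.68%. Rims1 averaged 658 ± 49.1 normalised counts in High females and 596 ± 58.6 in Low females (SD, n = 12 each), with a log2 difference of 0.14 ± 0.053 and an adjusted limma p of 0.854. Rab3c averaged 3674 ± 595 in High females and 3106 ± 592 in Low females (SD, n = 12 each), with a difference of 0.25 ± 0.11 and an adjusted limma p of 0.955. In males 0 of 38 were called, beside 0% of all genes, and 1 had an unadjusted p under 0.05, beside 6.93%. That gene was Rims2, an active zone protein close to Rims1, at 804 ± 141 in High males and 701 ± 110 in Low males (SD, n = 12 each). Its log2 difference was 0.19 ± 0.094 with an adjusted limma p of 0.717.

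**Figure D2:**
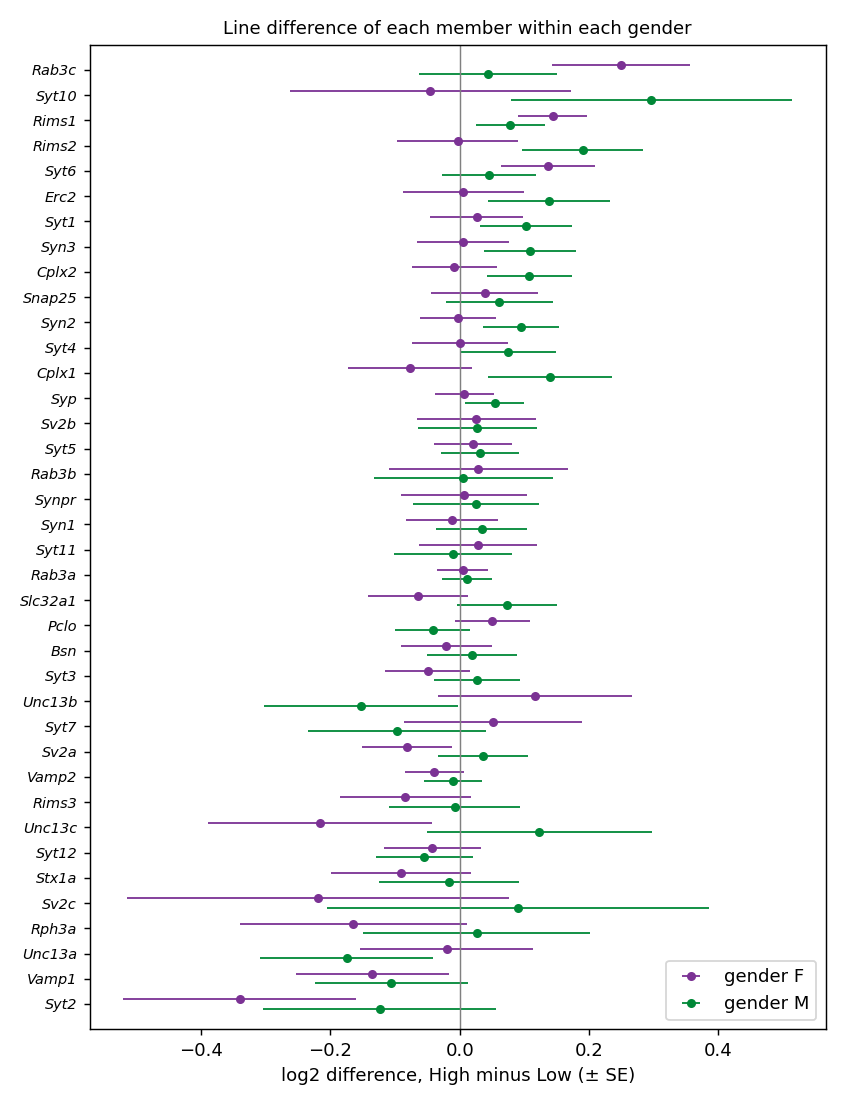
Log2 difference, High minus Low, with its standard error for each of the 38 genes, in females and in males (12 against 12 mice each, limma). Most intervals cross or lie near 0, and no gene passed the adjusted threshold in either gender.

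The line difference was not called as differing between genders for any member (0 of 38, beside 0% of all genes; 0 had an unadjusted p under 0.05, beside 2.40%). Cplx1 had the smallest interaction p: it averaged 4800 ± 856 normalised counts in High females and 5032 ± 643 in Low females, and 5190 ± 1199 in High males and 4619 ± 493 in Low males (SD, n = 12 each). The log2 difference in females minus that in males was -0.22 ± 0.14 (adjusted limma p 0.99982). Rims2 came next at -0.19 ± 0.13, with the same adjusted p from limma; it averaged 719 ± 124 in High females and 719 ± 109 in Low females (SD, n = 12 each).

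No member passed the test between females and males. In the gender contrast 0 of 38 genes were called, beside 0.0782% of all genes, and 0 had an unadjusted p under 0.05, beside 4.21%. Syt12 ran from 613 through 808 to 1032 normalised counts in females and from 611 through 746 to 938 in males (log2 difference 0.10 ± 0.053, adjusted limma p 0.982). Syt6 ran from 2256 through 2826 to 3281 in females and from 1717 through 2678.5 to 3220 in males, a difference of 0.09 ± 0.051. Syn2 went the other way, from 4584 through 5244.5 to 6368 in females and from 4238 through 5614.5 to 6794 in males, a difference of -0.06 ± 0.042. All 3 overlapped between the genders. In Syt12, 29.1% of the words of 25 bases in its transcripts also occur in other genes, chiefly in the opposite-strand gene A930001C03Rik.

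Spread between mice of a group was compared by the absolute deviation from the group median. Of 38 genes 0 were called, beside 0.0586% of all genes, and 1 had an unadjusted p under 0.05, beside 3.97%. Cplx1, a clamp and helper of fusion, had SDs of 1039 around a mean of 4995 in High mice and 599 around 4826 in Low mice, with a mean absolute deviation larger by 0.10 ± 0.045 (log2) in High mice and an adjusted limma p of 0.998. Syt7 had the next smallest p, with an SD of 563 in High mice and 642 in Low mice and a difference of -0.11 ± 0.062.

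**Figure D3:**
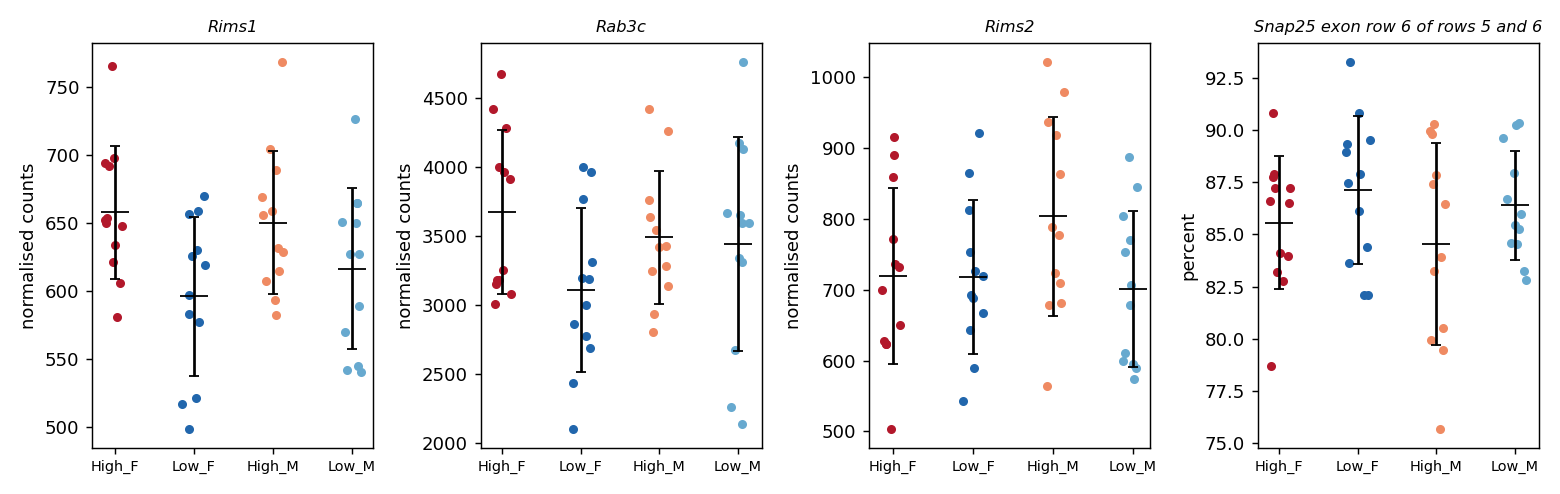
Values per mouse for Rims1, Rab3c and Rims2 (normalised counts) and for the percent of Snap25 exon 5 reads on row 6, by group; points are mice, horizontal marks are means and bars are SDs (12 mice a group). All groups overlap, including Rims1, where the mean was 658 in High females and 596 in Low females.

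Of 84 other genes of the vesicle cycle and vesicle filling, 78 could be tested. None of the 78 was called for line, beside 0.280% of all genes, and 7 had an unadjusted p under 0.05 by limma, beside 9.07%, a share near that of all genes. Snap29, a SNARE of several membrane fusion steps, averaged 271 ± 29.2 normalised counts in High mice and 248 ± 28.3 in Low mice (adjusted limma p 0.354). Scamp1, a carrier membrane protein, averaged 3827 ± 373 in High mice and 3545 ± 406 in Low mice (adjusted limma p 0.368). For gender 0 of the 78 were called, beside 0.0782% of all genes, and 3 had an unadjusted p under 0.05, beside 4.21%. The smallest p values were those of Syt16 (log2 difference, females minus males, -0.14 ± 0.041, adjusted limma p 0.612) and Syt9 (-0.30 ± 0.11, adjusted limma p 0.982).

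Levels of 2 members rose with the cortical pyramidal marker score, a mean over 12 markers of the centred log2 values that holds no member. The score ran from a lowest value of -0.51 to 2.71 and was above 1 in 5 libraries, 2 of High males, 1 of a Low female and 2 of Low males. Stx1a rose by 0.32 ± 0.033 (log2) per unit of score, with an adjusted limma p of 1.12e-09. Rph3a, the Rab3 effector rabphilin, rose by 0.43 ± 0.068 with an adjusted limma p of 3.44e-05. The count of 2 of 38 higher stands beside 1.34% of all genes higher, and of 38 members 0 were called lower, beside 0.456%. An unadjusted p under 0.05 was found for 10 of 38 members, beside 17.3% of all genes. Of the 12 markers in the score, 6 passed the filter on low values. Of these, 5 had a coefficient above 0 and 1 below, and limma called 3 higher. These counts are no separate support, since the markers make up the score. Slc17a7, 1 of them, ran from 2 to 3886 normalised counts over the libraries. Markers of other cell types also went with the score. Of 12 medium spiny neuron markers 11 had a coefficient below 0, 5 with an unadjusted p under 0.05, and limma called 1, Tac1, at -0.15 (adjusted limma p 0.0132). Of 9 interneuron markers 9 had a coefficient above 0, 4 with an unadjusted p under 0.05 and 0 called by limma. Their part in the rise of Stx1a and Rph3a was not tested.

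In those 5 libraries Stx1a had 1055 and 987 normalised counts in High males 1 and 10, and 706, 850 and 1481 in Low female 4 and Low males 8 and 6. Rph3a had 1371 and 767 in the same High males and 523, 821 and 1709 in the same Low mice. Slc17a7, 1 of the 12 markers in the score, had 1626 and 1387 in these High males and 862, 961 and 3886 in these Low mice. Over all mice Stx1a ran from 512 through 641 to 1055 in High mice and from 492 through 664 to 1481 in Low mice. Rph3a ran from 329 through 545 to 1371 in High mice and from 395 through 602 to 1709 in Low mice. For both genes the highest value came from Low male 6 and the next from High male 1, the libraries with the highest scores. Below these, Rph3a did not follow the order of the scores. Low male 5, at a score of 0.55, had 1031 normalised counts of Rph3a, above the 767, 821 and 523 of High male 10, Low male 8 and Low female 4. The summed level of the 12 markers ran from 1444 through 1706.5 to 4530 in High mice and from 1451 through 1732 to 7704 in Low mice.

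The calls depended on few libraries, while the coefficients of both genes stayed above 0. Without the 2 farthest from the median score, High male 1 and Low male 6, Stx1a stayed called at 0.25 (adjusted limma p 0.0021) and Rph3a was at 0.29 (adjusted limma p 0.512). Without the 5 libraries above a score of 1, an alternative chosen after seeing the data, none of the 38 was called: Stx1a was at 0.23 (adjusted limma p 0.417) and Rph3a at 0.64 (adjusted limma p 0.404). That fit has fewer libraries and a narrower range of the score. No source label ties these libraries to a dissection or day, and the part of neighbouring cortex in the result was not tested.

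The other members with the largest positive coefficients were Sv2c (0.21 ± 0.15) and Rims3 (0.15 ± 0.048, adjusted limma p 0.0806). Without High male 1 the sign of Sv2c turned, to -0.02. Rims3 ran from 602 through 801.5 to 1436 normalised counts in High mice and from 609 through 808.5 to 1322 in Low mice. The largest negative coefficients were those of Rab3b (-0.12 ± 0.070), Snap25 (-0.08 ± 0.042), Syt6 (-0.07 ± 0.037) and Syt5 (-0.06 ± 0.030), none of them called. Among the 78 other genes limma called 6 higher with the score, beside 1.34% of all genes, and 0 lower, beside 0.456%. They include Syt17 (0.72 ± 0.099), Syt13 (0.39 ± 0.054), Doc2a (0.18 ± 0.038), a calcium-binding protein of spontaneous release, and Sh3gl2 (0.17 ± 0.039), the endophilin of vesicle retrieval. Coefficients of these 6 genes without the highest-scoring libraries are not given here.

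**Figure D4:**
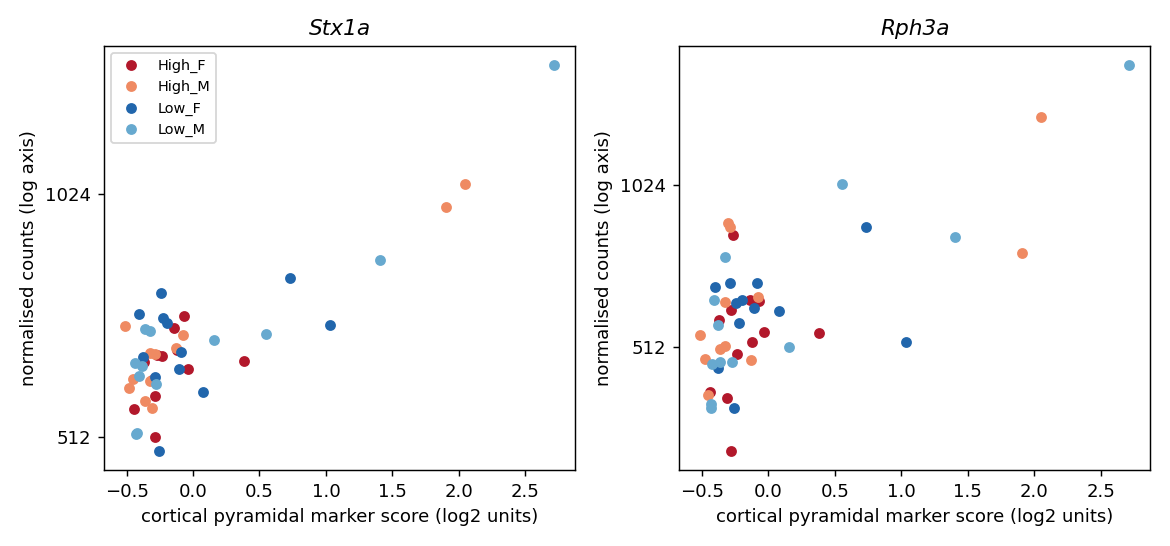
Normalised counts of Stx1a and Rph3a (log axes) against the cortical pyramidal marker score of each library, coloured by group. The highest values, 1481 for Stx1a and 1709 for Rph3a, belong to the library with the highest score, 2.71, a Low male.

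More members moved with the last-exon share, the percent of exon values that falls on the last exon of each gene, pooled over genes with members left out. In poly(A)-selected libraries it is higher where reads crowd at the 3′ end. It ran from 46.6% to 59.4% over the libraries, with a mean of 54.4% ± 2.57 in High mice and 54.1% ± 2.36 in Low mice (SD, n = 24 each). Of 38 members 20 fell with a higher share, beside 21.8% of all genes, and 1 rose, beside 18.0%, by limma at an adjusted p under 0.05. In either direction 21 of 38 were called, beside 39.8% of all genes, and 23 had an unadjusted p under 0.05, beside 47.0%. The median coefficient was -0.026 log2 per percentage point over members and -0.0029 over all genes. Among the 78 other pathway genes 38 fell and 8 rose, so a fall was common in both lists; what drives it was not tested.

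Sv2c fell most, by 0.25 ± 0.026 (log2) per percentage point (adjusted limma p 5.64e-11). It had 472 normalised counts in High male 1, the library with the lowest share, and 59 in Low male 12, the library with the highest. Unc13c, the Munc13 best known from cerebellar granule cells, fell by 0.14 ± 0.017, with 1024 and 248 in the same libraries. Syt10 fell by 0.12 ± 0.028 and Rph3a by 0.11 ± 0.021. The transporter Slc32a1 fell by 0.06 ± 0.0072, with 3852 in High male 1 and 2112 in Low male 12. Syn1 also fell by 0.06 ± 0.0066, with 4392 and 2819. Snap25 alone rose, by 0.03 ± 0.011 (adjusted limma p 0.0206), with 15103 in High male 1 and 20702 in Low male 12. Without High male 1 the count was 17 lower and 0 higher: Snap25, Syn2, Syt1 and Syt11 were no longer called, and Snap25 was at 0.03 with an adjusted limma p of 0.070. Rab3a and Vamp2 were among those not called, at 0.0003 ± 0.0055 and -0.01 ± 0.0063. With this share as a covariate, Rims1 differed between the lines by 0.12 (adjusted limma p 0.149).

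**Figure D5:**
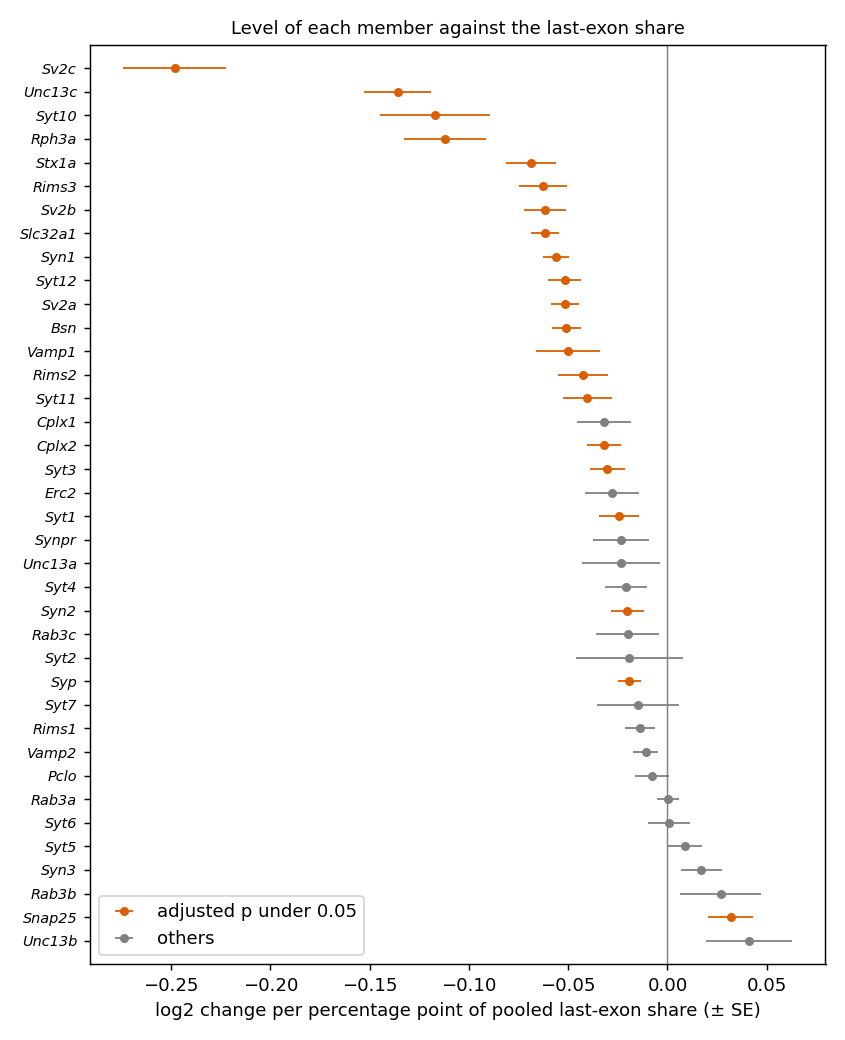
Change of each member's level (log2 per percentage point of the pooled last-exon share, ± SE, limma); orange marks an adjusted p under 0.05. Sv2c, at -0.25, lies far to the left of the rest, and Snap25 is the only called gene to the right of 0.

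Within most members, the larger part of the exon values lay on the last exon row. These shares were not divided by exon length, so a long last exon raises them. On average the last exon row of a member held a median of 72.9% of its exon values, and 27 of 38 members were over 50%. Rab3c, Rims3 and Vamp2 held 97.1%, 96.0% and 95.2% there. For Vamp2 this is a share of its 2 listed rows only, which cover 853 of 2827 transcript bases. At the other end the last row held under 3% in Syn3 and Vamp1, and 0.038% in Syt6. In Syt6 an earlier row held most: row 9 of 10 averaged 2312 normalised counts, beside 2695 for the gene. Exon rows were numbered along the direction of transcription, by the order of their starts and the strand given in GENCODE M21.

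Exon usage, the change of an exon relative to its gene, was not called for any member. It was tested with limma's diffSplice on 481 exons of the 38 genes. For line 0 of 38 genes were called by the Simes p, beside 0.510% of all genes. For gender 0 were called, beside 0.170%, and for the cortical score 0, beside 0.571%; at an unadjusted Simes p under 0.05 the member counts were 4, 1 and 0, beside 5.32%, 3.96% and 6.48% of all genes. These calls are liberal where exons of a gene differ in spread. When exons were weighted by their spread, a choice made after seeing the data, the counts of members were 0, 0 and 12, beside 0.0408%, 0.0408% and 10.0% of all genes. The smallest p values among the 12 were those of Syn1, Sv2b and Syt1. Without the 2 libraries farthest from the median score the count was 0, beside 0.00680%.

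For line, the smallest p belonged to exon row 1 of Pclo (Piccolo), the first row of 26 (mm9 start 14514918 on chromosome 5). It averaged 1.88 ± 1.60 normalised counts in High mice and 2.88 ± 1.87 in Low mice (SD, n = 24 each), a few reads per library. Its relative log2 difference was -0.50, with an adjusted diffSplice p of 0.184 in the main fit. With the last-exon share as a covariate it was called, at -0.55 and an adjusted limma p of 0.0179. Rims3 had the next smallest Simes p per gene. Its row of smallest p was row 3 (2.08 ± 3.11 in High mice and 3.71 ± 1.97 in Low mice, relative difference -0.82, adjusted limma p 0.784). For gender, row 3 of Rims1 averaged 4.08 ± 2.28 in females and 2.13 ± 1.70 in males (relative difference 0.87, adjusted limma p 0.300). Row 1 of Synpr averaged 0.667 ± 1.09 in females and 1.42 ± 2.26 in males. All of these are rows near the limit of detection. For the cortical score, row 1 of Vamp2 had a relative change of 0.18 and row 1 of Syt12 of 0.25, each with an adjusted limma p of 1.

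The Snap25 exon pair printed above was read in every mouse. Row 6, exon 5b, averaged 726 normalised counts and row 5, exon 5a, 118. Row 6 made up 85.9% ± 3.65 of the pair over 48 mice (SD). It ran from 75.7% through 86.5% to 90.8% in High mice and from 82.1% through 86.4% to 93.3% in Low mice. The lowest shares came from High mice, but the lines overlapped. The means were 85.1% in High mice and 86.8% in Low mice, a difference of -1.71 percentage points (two-sided permutation test, p = 0.107; 0.491 adjusted over 8 tests).

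Exon groups of 3 other members were compared in the same family of 8 tests, all chosen after values had been seen. In Syn2, the long row 12 made up 83.1% of rows 12 to 14 in High mice and 83.6% in Low mice. In Synpr, row 3 made up 97.5% of the first 3 rows in High mice and 96.5% in Low mice. In Rims2, rows 29 to 32 stood far above the upstream rows 8 to 27: per length, by 2.97 ± 0.30 on the log2 scale in High mice and 2.87 ± 0.31 in Low mice (SD, n = 24 each). Rims2 row 31 held 546 normalised counts per kb, against 32 in row 8. The lowest log2 ratios of Rims2, 2.17 in High male 1 and 2.19 in Low female 6, came from the libraries with the lowest last-exon shares, 46.6% and 49.0%. The next lowest, 2.36, came from High female 5, with a share of 54.1%. How far this ratio follows crowding of reads at the 3′ end, rather than transcript forms, was not tested. With all 48 libraries, none of the 8 tests reached an adjusted permutation p under 0.491. The smallest adjusted permutation p was 0.389 without High male 1 and 0.549 without the libraries above a cortical score of 1.

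For 15 members an exon overlaps an exon of a gene on the other strand, and 7 share over 5% of their words of 25 bases with other genes. The largest shares were 33.3% for Syp, chiefly with Gm14703, 29.1% for Syt12 and 24.3% for Slc32a1, chiefly with Gm14205. Without a known strand setting, reads of each pair cannot be told apart, and the levels of these members carry that limit.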

How the data were processed

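Poly(A) RNA of 48 nucleus accumbens shell samples was measured, 12 in each of 4 groups. The authors deposited a gene table and an exon table. The unit of both is a score, since names and values show counts already normalised and then rounded by the authors before deposit. STAR 2.4.0 and edgeR 3.4.2 are named in the submitters' processing notes beside CASAVA, FastQC and R 3.0.2, with build mm9 and no roles; the counter, its strand setting and the normalisation method are not given in the sources used here.

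Values were tested with limma 3.58.1 (R 4.3.3) on log2(value + 0.5 ppm), keeping 15350 genes that reached 1 ppm (14.06 units) in 12 or more libraries, with a mean-variance trend, group means and Benjamini-Hochberg adjustment over all genes; the call threshold was 0.05. Exons were tested with diffSplice at 0.1 ppm and a pseudocount of 0.05 ppm. Fold changes are on this scale and understate low genes. The gene and exon fits were run on simulated data with known changes. The exon matching, levels per kb, shares, word counts and permutation tests were not. For exon usage by line over 14575 genes, 325 genes were called when 193 had been changed, 134 of the 325 being unchanged. With weighted exons 220 were called, 29 of them unchanged. Exon rows name only a start on mm9: 508 of 536 rows were matched by the spacing of starts to GENCODE M21 (GRCm38), 11 lay inside an exon and 17 did not match, and 99.98% of the members' value was matched. No position was converted. The 100000-resample permutation tests were two-sided.

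Members, lists and tests were chosen with earlier results of these data known. Values were given for the members with the smallest p in each contrast (3 for line and for gender, 2 for interaction and for variability), the highest and lowest per length of each family, the 4 largest coefficients for the score in each direction, and for exon usage the called genes or else the 2 smallest Simes p. The genes named for the last-exon share, the alternative exons and the motifs were chosen after values were seen. The labels give each library its own sample number, and each was taken as a separate mouse. Families and cages are not given, and p-values cover only the spread among these 48 animals. Alternatives covered filter, pseudocount, scaling, trend, library weights, a left-out library and covariates.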

Additional observations from a re-analysis of the deposited data

How the results depend on the processing

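Of 298 refitted estimates of named members, 286 kept their direction and side of the threshold, 6 were no longer called and 2 became called; the 4 that turned were Sv2c with the score, at -0.015 without High male 1, -0.12 with the last-exon share as covariate and -0.12 without the 2 farthest libraries, and Vamp2 exon row 1 with the score, at -0.046 with that covariate. Members called with the score numbered 4 with equal totals (309 of all 15350 genes), 7 with library weights (1022), 1 without the 2 farthest libraries (25) and 0 without those above 1 (3), against 2 (275) as reported. The Synpr share differed by -0.0344 points, against 0.955, without the libraries above a score of 1. With the last-exon share as covariate 1 member was called for exon usage by line.

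Over all genes, library weights gave 80 called for line, 7 for line in females and 15 for variability, against 43, 4 and 9. No filter gave 2 for line in females, 15 for variability and 473 for the score. The last-exon share as covariate gave 77 for line, 2 for line in females and 118 for the score. For the score 95 were called without High male 1. Exon usage by line called 34 genes at 0.5 ppm, 37 with a pseudocount of 0.2 ppm, 169 with the covariate and 6 with weighted exons, against 75. By gender it called 11, 8, 97 and 6 under the same settings and 38 without High male 1, against 25. By score it called 35 at 0.5 ppm, 27 with the larger pseudocount, 32 without High male 1, 26 without the 2 farthest libraries, 1477 with weighted exons (12 members) and 1 with weighted exons and without the 2 farthest (0 members), against 84. The cause of these shifts was not tested. The choice of weighted exons and of libraries above 1 came after seeing the data. Depth before normalisation is unknown and limits the lowest members, such as Syt10 and Pclo exon row 1. No paired analysis was possible because replicate numbers were given in order of listing and pair no mice.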
